A study of Mus musculus with 12 samples.

Results

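Gprc5b, Tox2, Cpe and Ctnnd2 are 4 of the 18376 genes listed in a table of normalized RNA sequencing counts from mouse bone marrow-derived macrophages (BMDMs), and they are described here in all 12 libraries. They were selected on their measured values, because they were among the genes that fell most in activin A-treated BMDMs. Every comparison that includes those libraries therefore describes the choice and carries no test for these genes. CTRL values entered the choice as well, Act+FST values entered it for Ctnnd2, and Act+FST or FST values may have entered it for the others. Macrophages were grown from bone marrow progenitor cells of adult WT C57BL/6J mice in 50 ng/ml M-CSF, which all groups received. Treatments lasted 6 days. CTRL cells received nothing further, Act cells received 50 ng/ml human recombinant activin A, FST cells received 250 ng/ml FST288, and Act+FST cells received both at these concentrations, with 3 libraries per group. The labels do not state that replicates came from separate mice, so p-values measure only the spread between these libraries, which may be technical.

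Activin A is a member of the TGF-beta family that acts through cell surface receptors and SMAD transcription factors. Follistatin, of which FST288 is a cell surface-binding form, is secreted and neutralizes activin A by binding it. The 4 genes belong to separate families. Gprc5b encodes an orphan G protein-coupled receptor of a retinoic acid-inducible family. Tox2 encodes a nuclear protein with an HMG box, a DNA-binding domain. Cpe encodes carboxypeptidase E, which trims basic residues from prohormones and neuropeptide precursors. Ctnnd2 encodes delta-catenin, an armadillo-repeat protein of the p120 catenin family that binds cadherins and is best known from neurons.

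All 4 are protein-coding genes, and positions are those of the deposited table on mm10 (GRCm38). Gprc5b (ENSMUSG00000008734) lies on the minus strand at chr7:118972047-118995211. Tox2 (ENSMUSG00000074607) lies on the plus strand at chr2:163203125-163324170. Cpe (ENSMUSG00000037852) lies on the minus strand at chr8:64592542-64693054. Ctnnd2 (ENSMUSG00000022240) lies on the plus strand at chr15:30172593-31029341 and spans 856749 bases, compared with 23165 bases for Gprc5b. Promoter sequences were found in the RefSeq table of GRCm38.p6 for 3 of the 4 genes, and Cpe is named only. The 250 bases before the annotated start site are shown because all 3 genes were low in the same libraries, and in Tox2, which has 5 annotated windows, the window whose start site lies closest to the gene start is shown. Capitals mark CAGAC, the SMAD box, and GGCGC, a GC-rich element that SMAD proteins can bind, on either strand, so that GTCTG and GCGCC are the same letters read on the other strand. The Gprc5b sequence covers chr7:118995212-118995461 on the minus strand, the Tox2 sequence chr2:163202877-163203126 on the plus strand, and the Ctnnd2 sequence chr15:30172284-30172533 on the plus strand, each written 5′ to 3′.
Gprc5b: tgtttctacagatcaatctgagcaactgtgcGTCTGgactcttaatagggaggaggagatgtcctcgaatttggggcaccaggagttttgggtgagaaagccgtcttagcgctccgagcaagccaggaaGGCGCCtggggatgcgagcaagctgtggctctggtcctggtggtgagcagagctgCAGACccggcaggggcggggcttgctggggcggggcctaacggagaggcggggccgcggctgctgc
Tox2: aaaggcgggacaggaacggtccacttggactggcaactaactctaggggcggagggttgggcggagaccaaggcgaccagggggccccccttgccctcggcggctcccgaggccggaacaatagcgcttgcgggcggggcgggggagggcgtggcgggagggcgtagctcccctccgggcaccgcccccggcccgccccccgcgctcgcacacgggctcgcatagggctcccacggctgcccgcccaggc
Ctnnd2: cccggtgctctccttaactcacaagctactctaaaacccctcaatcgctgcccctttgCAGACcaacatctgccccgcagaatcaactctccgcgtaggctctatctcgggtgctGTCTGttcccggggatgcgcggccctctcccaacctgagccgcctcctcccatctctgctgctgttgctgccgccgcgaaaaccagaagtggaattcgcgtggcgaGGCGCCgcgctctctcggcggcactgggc

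Motifs were counted in the whole 300-base window, which runs from 250 bases before to 50 bases after the start site. CAGAC occurred 2 times in the Gprc5b window, 2 times in the Ctnnd2 window and 0 times in the Tox2 window shown, and it occurred in 49.6% of all 32851 windows. The 2 overlapping Tox2 windows, which start at positions 163225203 and 163225204, held 1 CAGAC each. GGCGC occurred 4 times for Gprc5b, 1 time for the Tox2 window shown and 2 times for Ctnnd2, and it was present in 36.9% of all windows. The Tox2 windows that start at 163203033 and 163203936 held 3 and 5, and those at 163225203 and 163225204 held 1 each. Some of these matches overlap one another. The palindrome GTCTAGAC, the nuclear receptor half-site AGGTCA, the PU.1 sequence GAGGAAG, the AP-1 site TGACTCA and the E-box CACGTG were searched on both strands and were in none of the 7 windows of the 3 genes. These letters occurred in 0.213%, 16.3%, 13.6%, 5.2% and 7.15% of all windows, respectively. The windows were rich in G and C, with 66.3% for Gprc5b, 77.0% for the Tox2 window shown and 64.7% for Ctnnd2, compared with a median of 52.7% over all windows. A match describes letters in a window and is not evidence that a factor binds there.

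In untreated BMDMs, RNA of all 4 genes was present at low to moderate levels. Per kilobase of exon, the CTRL mean was 100 for Tox2, 29.8 for Cpe, 28.9 for Gprc5b and 10.3 for Ctnnd2. Over all 12 libraries, Act included, the means per kilobase were 76.7 for Tox2, 22.1 for Gprc5b, 19.7 for Cpe and 10.5 for Ctnnd2. The median of such 12-library means was 61.9 over the 14318 genes tested, for which a mean of 5 or more normalized counts was required. On the same per-kilobase scale, the CTRL level of Tox2 was above that of 66.9% of tested genes. The CTRL levels of Cpe, Gprc5b and Ctnnd2 were above those of 32.7%, 32.1% and 17.9% of tested genes. The labelled cell type was checked with 8 macrophage markers, including Adgre1, which encodes F4/80, and Csf1r, which encodes the M-CSF receptor. All 8 were listed, 0 were called different between Act and CTRL, and their summed normalized count per library lay between 11172 and 12394 over all groups. Total normalized counts lay between 5643708 and 5955400 per library, and these totals do not show sequencing depth because the authors had scaled the values.

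Gprc5b normalized counts were 117, 162 and 123 in CTRL, 6, 18 and 5 in Act, 139, 99 and 77 in Act+FST, and 157, 175 and 152 in FST, for replicates 1, 2 and 3. Every Act library was below every other library, and the Act mean of 9.67 ± 7.23 (SD, n = 3) was 7.21% of the CTRL mean of 134 ± 24.4. The order of the group means was FST, CTRL, Act+FST and Act. CTRL overlapped with both FST and Act+FST, whereas each Act+FST library was below each FST library.

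Tox2 was the most abundant of the 4 genes and had the smallest spread outside Act. Its normalized counts were 336, 343 and 345 in CTRL, 28, 58 and 14 in Act, 295, 306 and 314 in Act+FST, and 358, 356 and 376 in FST. The Act mean of 33.3 ± 22.5 was 9.77% of the CTRL mean of 341 ± 4.73. The groups did not overlap, in the order FST, CTRL, Act+FST and Act, although the means of FST, CTRL and Act+FST lay close together at 363, 341 and 305. Replicate 2 of Act held the highest value of that group for both Tox2 and Gprc5b.

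Cpe normalized counts were 83, 72 and 78 in CTRL, 11, 5 and 7 in Act, 58, 27 and 40 in Act+FST, and 92, 65 and 78 in FST. Act was again below all other libraries, with a mean of 7.67 ± 3.06 that was 9.87% of the CTRL mean of 77.7 ± 5.51. With both proteins present, the Cpe mean of 41.7 ± 15.6 was 53.6% of the CTRL mean, compared with 78.4% for Gprc5b, 89.4% for Tox2 and 144% for Ctnnd2, and the difference between the genes was not tested. All 3 Act+FST libraries lay below all CTRL and all FST libraries, and the FST mean of 78.3 ± 13.5 was 101% of CTRL.

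Ctnnd2 normalized counts were 153, 100 and 66 in CTRL, 15, 11 and 13 in Act, 219, 126 and 114 in Act+FST, and 235, 123 and 131 in FST. The Act mean of 13.0 ± 2.0 was 12.2% of the CTRL mean of 106 ± 43.8. The order of the means was FST, Act+FST, CTRL and Act, and the groups other than Act overlapped one another. Replicate 1 held the highest Ctnnd2 and the highest Cpe value in each of the 4 groups. Col1a2, a collagen gene that marks stromal cells, was also highest in replicate 1 of each group, with 24, 109, 58 and 58 normalized counts in CTRL, Act, Act+FST and FST, compared with 0 to 9 in the other libraries. The part of stromal cells in the Ctnnd2 and Cpe values was not tested. In these bulk libraries, fewer cells that express a gene and less RNA per cell cannot be told apart.

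**Figure D1:**
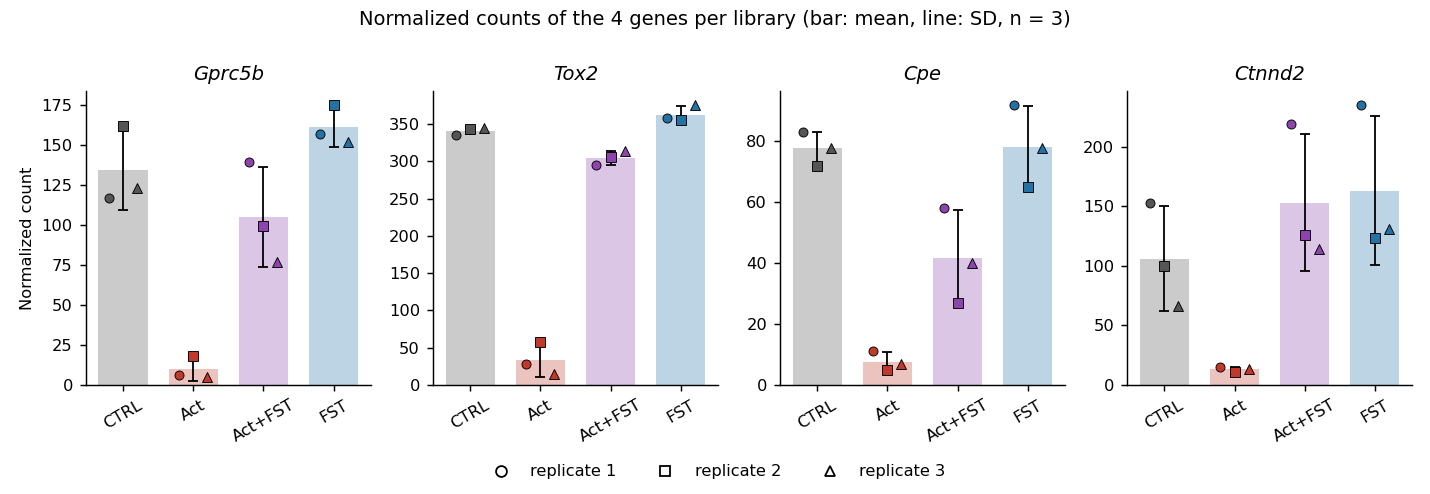
Normalized counts (y axes, each gene on its own scale from 0) of Gprc5b, Tox2, Cpe and Ctnnd2 in the groups CTRL, Act, Act+FST and FST; points are libraries with the shape giving the replicate, bars are means and lines are SD (n = 3). For each gene the 3 Act libraries lie below all 9 others, and Cpe in Act+FST lies between Act and CTRL.

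In the libraries that chose the genes, the differences between Act and CTRL on the log2(normalized count + 1) scale were -3.85 for Gprc5b, -3.54 for Tox2, -3.24 for Cpe and -2.87 for Ctnnd2, a scale that understates the change of low values. Within pairs of equal replicate number, Tox2 differed by -3.54, -2.54 and -4.53, whereas Ctnnd2 differed by -3.27, -3.07 and -2.26. Against Act+FST, the Act values differed by -3.47, -3.37, -2.29 and -3.41 for Gprc5b, Tox2, Cpe and Ctnnd2. Against FST they differed by -4.13, -3.63, -3.24 and -3.50, and these comparisons share the Act libraries. The call of a differentially expressed gene required a 2-fold or larger difference and, in limma, a p of 0.05 or lower after Benjamini-Hochberg adjustment. Over the table, 3.09% of the genes tested were called lower and 2.58% higher in Act than in CTRL, and 3.11% were called lower and 2.72% higher in Act than in Act+FST. The 4 genes are among those called lower in both because of how they were chosen.

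Among the 202 genes called lower in Act than in CTRL whose mean was 50 or higher and whose groups were apart, Gprc5b ranked 1, Tox2 ranked 2, Cpe ranked 5 and Ctnnd2 ranked 12 by size of the difference. Without the limits on mean and overlap, Gprc5b, Tox2, Cpe and Ctnnd2 ranked 3, 6, 11 and 27 among all genes tested. The predicted genes Gm42517 and Gm10419 lay between Tox2 and Cpe, with differences of -3.37 and -3.25. Tslp, which encodes the cytokine thymic stromal lymphopoietin, followed Cpe at -3.20, and Tmod1, which encodes an actin-capping tropomodulin, stood just ahead of Ctnnd2 at -2.88. Between Act and Act+FST, where 206 genes met the same limits, Gprc5b, Ctnnd2 and Tox2 ranked 1, 2 and 3, followed by Pimreg at -3.28. Cpe ranked 35 there, and 76 among all genes tested.

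**Figure D2:**
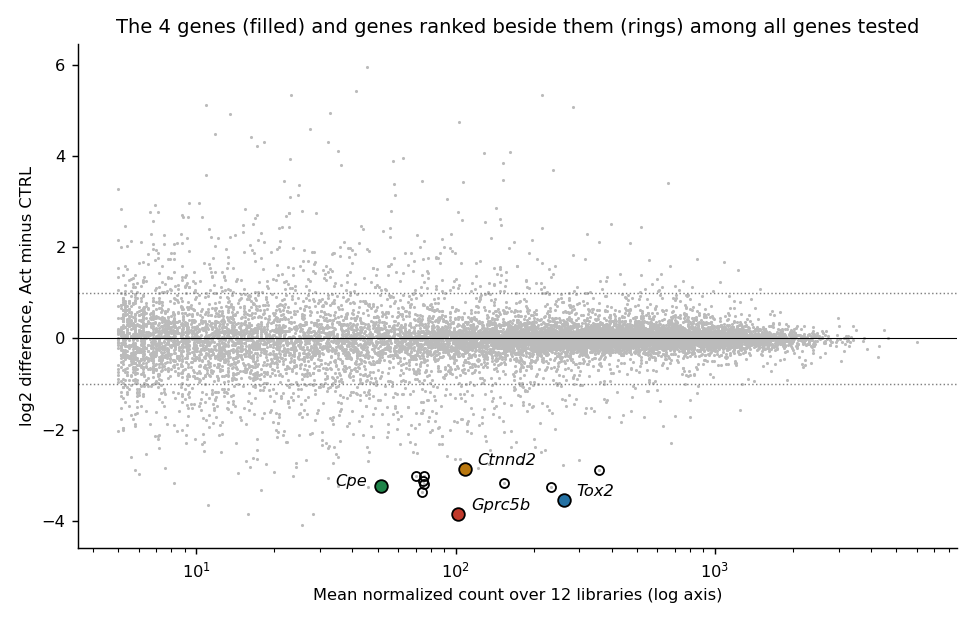
Difference between Act and CTRL on the log2(normalized count + 1) scale (y axis) against the mean normalized count over 12 libraries (x axis, log scale) for the 14318 genes tested; filled points are the 4 genes, rings are the genes ranked beside them, and dotted lines mark a 2-fold difference. The 4 genes lie between -2.87 and -3.85, at mean normalized counts from 51.3 to 261.

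Comparisons between groups other than Act ask whether follistatin alone changed these genes and whether activin A left a difference when follistatin was present. Genes chosen for high CTRL relative to Act values are tilted towards CTRL lying above other groups, so comparisons with CTRL are not free of the choice, and neither is Act+FST versus FST for Ctnnd2, whose Act+FST values entered it. For Gprc5b, Tox2 and Cpe, Act+FST or FST values may have entered the choice too, so Act+FST versus FST cannot be called free of it. Its interval and p also use Act and CTRL values, because the model estimated 1 spread over all 4 groups. Of the 12 tests, 4 genes in 3 comparisons, 0 passed the call, and 0 passed the adjusted p alone in the model without a replicate block. Over the whole table, 0.0% of genes passed the adjusted p for Act+FST versus CTRL, 0.0% for FST versus CTRL and 0.0% for Act+FST versus FST, while 655, 299 and 502 genes had an unadjusted p under 0.05 in limma. Replicate numbers paired the libraries, and with the replicate number as a block 0.559%, 0.0% and 0.217% of genes passed the adjusted p in these comparisons. With the block, 1404, 700 and 1169 genes had an unadjusted p under 0.05 in limma.

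Cpe was lower in Act+FST than in FST by a log2 difference of -0.95 (95% interval -1.57 to -0.32), in 3 of 3 replicate pairs, with adjusted p = 1 in limma and adjusted p = 0.06183 with the replicate block (interval -1.34 to -0.55). The log2 difference of Cpe between Act+FST and CTRL was also -0.95 (-1.57 to -0.32), lower in 3 of 3 pairs, with adjusted p = 0.7559 in limma. With the block, the comparison with CTRL had adjusted p = 0.04683, without reaching a 2-fold change, and over all alternative settings the adjusted p ran from 0.04683 to 1. Since high CTRL values favoured the choice of Cpe, this p against CTRL is not independent of the choice.

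Gprc5b differed between Act+FST and FST by -0.65 (95% interval -1.42 to 0.11) and between Act+FST and CTRL by -0.38 (-1.14 to 0.39), with adjusted p = 1 for both in limma. Tox2 differed by -0.25 (-0.97 to 0.47) and -0.16 (-0.88 to 0.56) in the same comparisons, with adjusted p = 1 for both in limma. These Tox2 intervals include the spread of the Act libraries, at 14 to 58 normalized counts. They do not show the spread within Act+FST (295 to 314), FST (356 to 376) and CTRL (336 to 345) alone. Act+FST was below FST in 3 of 3 pairs for Gprc5b and for Tox2. It was below CTRL in 2 of 3 pairs for Gprc5b and 3 of 3 for Tox2. Ctnnd2 in Act+FST differed from CTRL by 0.54 (-0.17 to 1.26), with the higher value in 3 of 3 pairs, and differed from FST by -0.09 (-0.80 to 0.63), with adjusted p = 1 for both in limma. With the replicate block, the interval was -1.24 to -0.07 for Gprc5b between Act+FST and FST (adjusted p = 0.5445 in limma) and 0.18 to 0.90 for Ctnnd2 between Act+FST and CTRL (adjusted p = 0.2056), so neither passed over all genes.

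FST alone differed from CTRL by 0.28 for Gprc5b (-0.49 to 1.05), 0.09 for Tox2 (-0.63 to 0.81), 0.00 for Cpe (-0.63 to 0.63) and 0.63 for Ctnnd2 (-0.08 to 1.34), each with adjusted p = 1 in limma. With the replicate block, the Ctnnd2 interval was 0.27 to 0.99 (adjusted p = 0.7191 in limma), and the difference was 0.33 without CTRL replicate 3 and 0.93 without CTRL replicate 1. Gprc5b, Tox2 and Ctnnd2 were higher with FST in 3 of 3 pairs, and Cpe was higher in 1 pair, lower in 1 and equal in 1. Groups did not overlap, with Act+FST the lower one, for Tox2 and Cpe against CTRL, where 3.02% of tested genes behaved so, and for Gprc5b, Tox2 and Cpe against FST, where 3.37% did. FST and CTRL did not overlap for Tox2, as for 5.55% of tested genes in either direction.

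**Figure D3:**
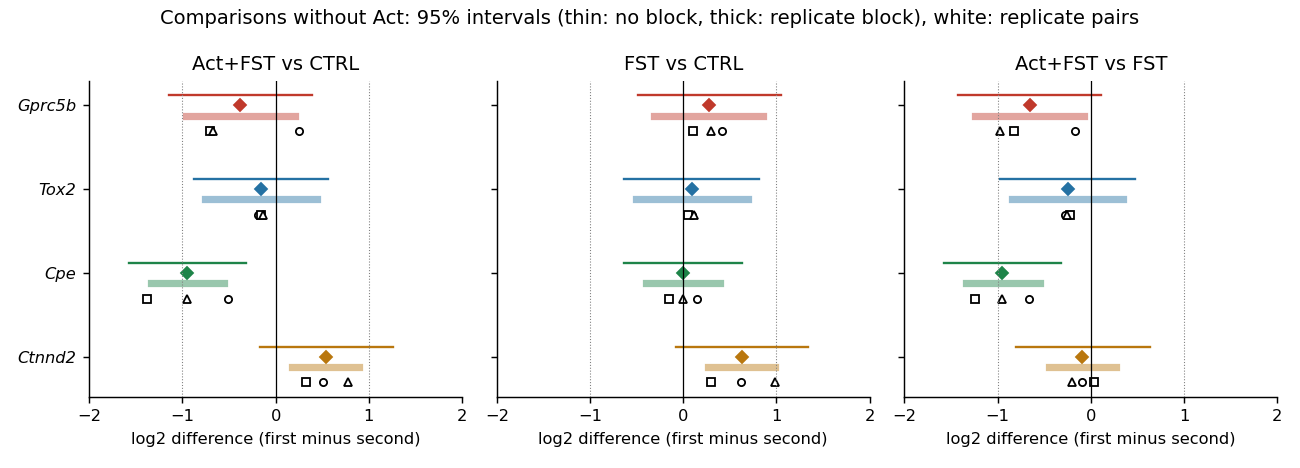
Log2 differences (x axes, first group minus second) of the 4 genes in the comparisons without Act libraries; diamonds are estimates, thin lines 95% intervals without and thick lines with the replicate block, and white symbols are pairs of equal replicate number (circle 1, square 2, triangle 3). The Cpe intervals lie below 0 in both comparisons of Act+FST, and dotted lines mark a 2-fold difference. The spread behind the intervals was estimated over all 4 groups, Act included.

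Patterns were compared by the root mean square difference of log2(normalized count + 1), each gene centred on its mean over the 12 libraries, among 10630 other genes with a mean of at least 50. The Act and CTRL libraries that chose the 4 genes are among the 12, so likeness between the 4 follows in part from the choice and is a description. Gprc5b and Tox2 differed by 0.33, Cpe and Ctnnd2 by 0.64, and the other 4 pairs by 0.67 to 0.74, which is farther than the nearest other genes of each. Nearest to Gprc5b were Dio2, which encodes a deiodinase that activates thyroid hormone, at 0.43, Gm10419 at 0.45 and Tslp at 0.46. Nearest to Tox2 were Gm10419 at 0.22, Tslp at 0.28 and Tmod1 at 0.30. Nearest to Cpe were Flrt2, Nrcam and Fbln5 at 0.39, 0.46 and 0.49, and nearest to Ctnnd2 were Fbln5, Flrt2 and Coro2b at 0.51, 0.54 and 0.55. Flrt2 and Nrcam encode cell adhesion proteins, and Fbln5 encodes an extracellular matrix protein of elastic fibres. Tslp had means of 94.3, 10.7, 95.7 and 101 normalized counts in CTRL, Act, Act+FST and FST, and Flrt2 had means of 282, 48.0, 214 and 307.

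Related genes were taken from lists of the receptor, TOX, carboxypeptidase and catenin families and of pathways around them, 86 genes in all besides the 4, of which 48 were listed in the table and 36 were tested. Between Act and CTRL, 2 of the 36 were called lower and 0 higher, a share of 5.56% compared with 5.66% of all genes tested, with a median log2 difference of 0.018 compared with 0.004. Between Act and Act+FST, 3 were called higher and 3 lower, a share of 16.7% compared with 5.83%, with a median of 0.07 compared with -0.003. The 6 calls fell to 3 without Act replicate 3 or without any 1 of the Act+FST libraries, and to 2 among genes with a mean of 50 or higher.

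Among the receptors, Gprc5c, a paralogue of Gprc5b, was called lower in Act. Its normalized counts were 776, 833 and 760 in CTRL, 211, 245 and 173 in Act, 727, 769 and 554 in Act+FST, and 858, 911 and 763 in FST. The log2 difference between Act and CTRL was -1.92 (SE 0.13, adjusted p = 1.726e-06 in limma), and the call was made in 20 of 20 alternative settings. Gprc5a was listed below the minimum mean. In the retinoid pathway 0 of 8 tested genes were called between Act and CTRL. Rxra, a retinoid receptor, was higher in Act by 0.30 (adjusted p = 0.00091 in limma), which is under 2-fold.

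Tox4 was the only other TOX gene tested, with means of 1038 in CTRL and 1064 in Act and a log2 difference of 0.04 (adjusted p = 0.5717 in limma). Of 7 NFAT and Nr4a transcription factors, which act in the same lymphocyte programmes as TOX proteins, 0 were called between Act and CTRL. Nr4a2 was called higher in Act than in Act+FST, with 56, 59 and 54 normalized counts against 38, 22 and 21, and in 15 of 19 alternative settings.

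Cpd, which encodes a carboxypeptidase of the Golgi, had means of 1559 in CTRL and 2244 in Act, higher by 0.52 (adjusted p = 0.00015 in limma) and under the 2-fold limit. Cpxm1 had a mean of 11.7 in both groups. Among 6 tested genes of prohormone processing, Qpct, which encodes a glutaminyl cyclase, was called lower in Act, with 95, 99 and 80 normalized counts against 267, 189 and 209 in CTRL and a log2 difference of -1.26 (adjusted p = 2.6e-05 in limma). Qpct was also called lower in Act than in Act+FST, in 15 of 20 alternative settings. Furin, Pcsk4, Pcsk7, Mbtps1 and Pam were not called.

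Of the p120 and plakophilin family, 0 of 5 tested genes were called between Act and CTRL. Ctnnd1, which encodes p120 catenin, had means of 257 and 233 normalized counts, and Pkp4 was lower in Act by 0.22 or 0.27 on the log2 scale against CTRL or Act+FST, which is under 2-fold. Pkp2 was called higher and Pkp3 lower in Act than in Act+FST, at means of 17.0 against 3.00 and of 4.33 against 13.7, in 19 and 14 of 19 alternative settings. In CTRL and FST the means were 9.67 and 5.0 for Pkp2 and 6.33 and 8.67 for Pkp3, so the Pkp3 call rests in part on a high Act+FST mean. Ctnnb1, which encodes beta-catenin, was higher in Act than in CTRL by 0.20 (adjusted p = 0.0088 in limma), under 2-fold, and none of the 4 further catenins tested, Ctnnb1 among them, and of the 2 cadherins was called in either comparison. Cyp26b1, which encodes a retinoic acid-degrading enzyme, was called higher in Act than in Act+FST from 4, 5 and 8 against 1, 2 and 3 normalized counts. The call was made in 7 of 19 alternative settings. The Act mean of 5.67 was below the Cyp26b1 means of 7.67 in CTRL and 7.0 in FST.

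**Figure D4:**
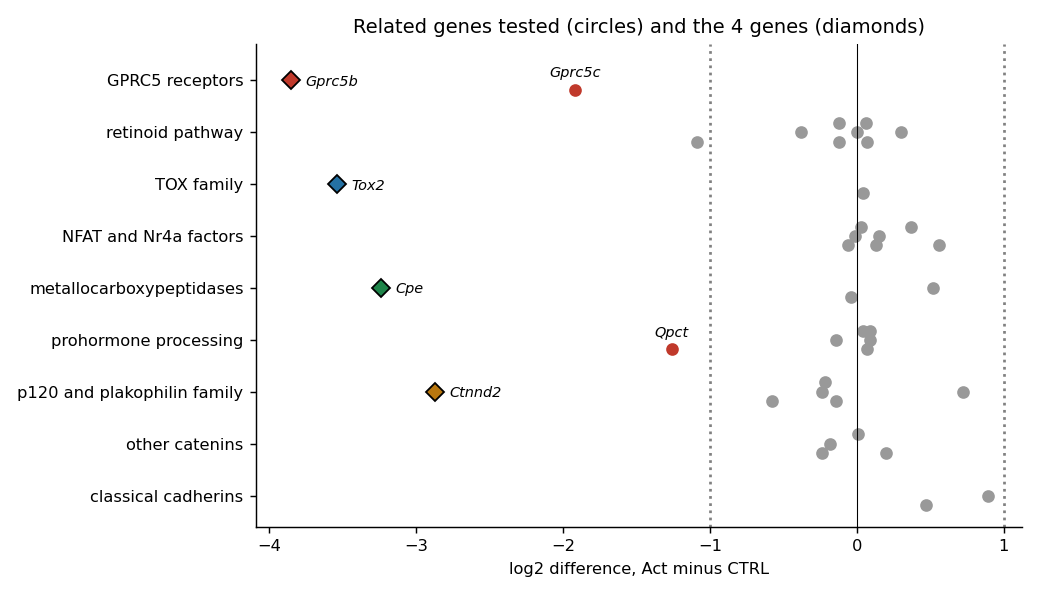
Log2 difference between Act and CTRL (x axis) for the 36 related genes tested, by list (y axis); red circles passed the call, grey circles did not, and diamonds are the 4 genes, which were chosen by this difference. Gprc5c and Qpct are the circles called, at -1.92 and -1.26.

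Markers of other cell types were examined beside these values. Of 9 neuronal markers 3 were listed, with sums of 149 to 177 normalized counts in CTRL and 121 to 126 in Act. Only Syp was tested, with means of 157 in CTRL and 121 in Act, and it was not called (log2 difference -0.37, adjusted p = 0.02 in limma). Tubb3 and Map2 were below the minimum mean, and neuron-defining Rbfox3, Snap25 and Syt1 were not among those listed. Of 6 granulocyte markers all were listed and 2, Mpo and Elane, were called lower in Act than in CTRL, with Mpo at 80, 162 and 54 in CTRL and 15, 42 and 15 in Act. Ly6g, S100a8, S100a9 and Camp were not called, with means of 6.0, 125, 203 and 44.3 in CTRL and 4.33, 134, 214 and 37.0 in Act. The granulocyte sums ran from 424 to 640 in CTRL and from 336 to 493 in Act. Of 8 stromal markers 7 were listed, with sums of 54 to 101 in CTRL, 88 to 291 in Act, 49 to 149 in Act+FST and 47 to 163 in FST. None of the 4 stromal markers tested was called between Act and CTRL, but Col1a2 passed with the replicate block (log2 difference 2.76, adjusted p = 0.31 in limma, 0.0004726 with the block). Against Act+FST, Col1a2 likewise passed only with the block (log2 difference 1.57, adjusted p = 0.5873 in limma, 0.0197 with the block), and Pdgfrb was called higher in Act than in Act+FST. Of 4 dendritic cell markers all were listed with sums of 26 to 73 in CTRL and 47 to 83 in Act, and Flt3 passed with the block only (adjusted p = 0.1653 in limma, 0.02086 with the block). Of 5 lymphocyte markers 2 were listed, with sums of 5 to 21 in CTRL and 8 to 14 in Act, and 1 of 5 mast cell markers was listed, at sums of 0 to 9 over all groups. The part of these cell types in the values of the 4 genes was not tested.

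Tested genes near the 4 genes on the chromosomes were compared to see whether low values extended beyond them. These 17 genes, up to 2 on each side plus those that overlap, were chosen by position after values had been seen. Apart from the overlapping Iqck, their gaps ran from 25.1 kb for Msmo1 to 2665 kb for Gm45418, so they do not describe only the immediate surroundings. Only Iqck was called lower in Act than in CTRL and 0 were called higher, compared with 3.09% and 2.58% of all genes tested. Iqck overlaps Gprc5b on the opposite strand, and 606 exonic bases, 13.1% of the Gprc5b exons, are shared. Its normalized counts were 24, 33 and 26 in CTRL, 9, 9 and 4 in Act, 21, 26 and 14 in Act+FST, and 13, 26 and 31 in FST, and the log2 difference between Act and CTRL was -1.84 (SE 0.37, adjusted p = 0.003676 in limma). Reads that overlap several genes were excluded by the authors, and whether the counting used strand is not given in the sources used here. It is therefore not known whether reads in the part shared by Iqck and Gprc5b were assigned by strand or left out. Mybl2, upstream of Tox2, differed by -0.93 between Act and CTRL without being called, and was called lower in Act than in Act+FST. Ankrd33b, downstream of Ctnnd2, and Msmo1, upstream of Cpe, were lower in Act by log2 differences of -0.58 and -0.66 (adjusted p = 2.2e-05 and 0.004117 in limma), which are under 2-fold. Knop1, downstream of Gprc5b, differed by -0.27 (adjusted p = 0.001255 in limma). In the other direction, Klhl2, 46.6 kb upstream of Cpe, and Otulinl, 2491 kb upstream of Ctnnd2, were higher in Act. Their differences were 0.28 and 0.23 (adjusted p = 0.03756 and 0.01051 in limma).

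**Figure D5:**
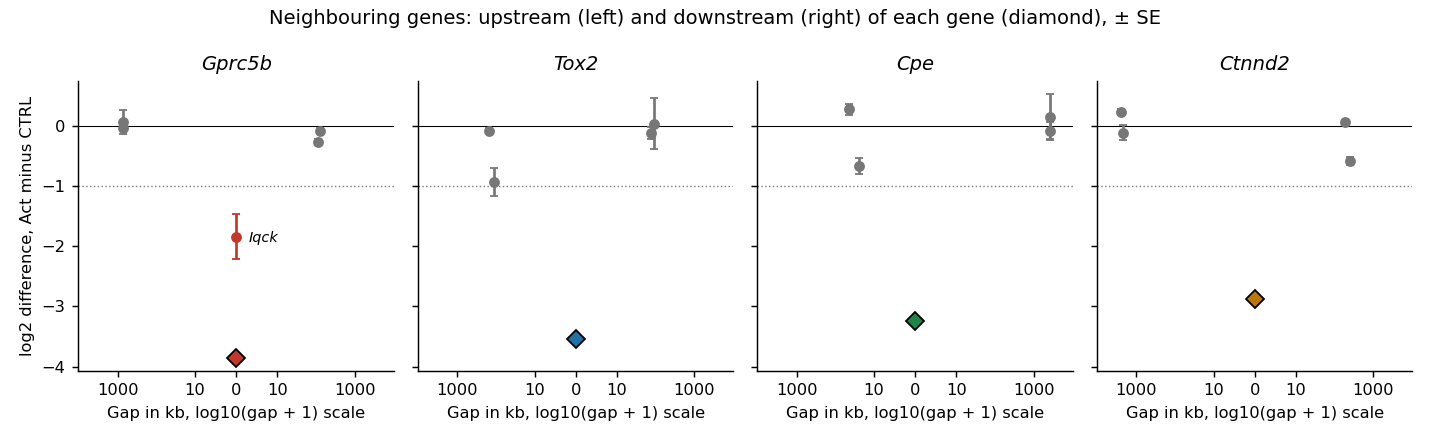
Log2 difference between Act and CTRL (y axis, ± SE) for 17 neighbouring genes against their gap to each of the 4 genes in kb (x axis, log10(gap + 1) scale, upstream to the left and downstream to the right); diamonds are the 4 genes. Iqck, which overlaps Gprc5b, is the neighbour called, at -1.84.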

How the data were processed

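RNA sequencing of 12 BMDM libraries used a stranded mRNA kit and single-end reads. The authors trimmed reads with Trimmomatic 0.39, aligned them to mm10 (Ensembl) with STAR 2.7.9a, and used featureCounts 2.0.2 to count reads that touch exons, without multi-gene or multi-mapping reads. They tested with DESeq2 1.30.0. The values deposited by the authors are counts scaled per library and rounded to whole numbers (normalized counts, a signal unit), and the scaling formula is not given in the sources used here. Gene names and positions were taken from the table's annotation columns.

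Genes with a mean of at least 5 (14318 of 18376) were fitted in limma 3.58.1 (R 4.3.3) with trend on log2(normalized count + 1), with 4 group means in 1 model. All tests were two-sided. The 4 genes and the gene lists were chosen with earlier results of these data known. Named besides the 4 were related genes that passed the call or were expressed family members, the 3 nearest genes in pattern, and neighbours in rank. The result of 1 listed gene is not reported here. The motif list, neighbouring genes and marker genes shown per library were chosen after values were seen. Labels give replicate numbers 1 to 3 in each group. In 18 same-numbered pairs of libraries from different groups, deviations from the group means correlated at 0.312 on average (0.157 to 0.481). The 36 other pairs averaged -0.155, which is tied to the first average because deviations cancel out within each group. The numbers were taken to pair the libraries because all 18 same-numbered pairs correlated positively. The fit was tested on simulated data. The steps among rounded low values gave estimated scaling factors of 0.909 to 1.09 and 5228519 to 6355480 counted reads per library. This estimator was revised after 2 earlier versions missed simulated factors, and its fit was near 0 in 2 libraries, so the depths are rough. Alternatives were pseudocounts of 0.5 and 5, no filter or a mean of at least 50, quantile normalization, recomputed median-ratio factors, a fit to only the 2 groups compared, a replicate block, and the omission of single libraries. In the GENCODE M21 annotation 18359 identifiers were found and 17 were not.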

Additional observations from a re-analysis of the deposited data

How the results depend on the processing

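With 3 libraries per group and Act values of the 4 genes as low as 5 normalized counts, the size of their differences is less certain than its direction. Every comparison of Act kept its direction for all 4 genes in all 20 alternatives. That direction follows from the choice of genes low in Act, so keeping it is no support. Some alternatives, such as the omission of a library outside the 2 groups compared, cannot change the estimate. With a pseudocount of 5, Cpe moved to -2.73 on the log2 scale against both CTRL and FST. The replicate block gave Cpe in Act+FST versus CTRL a difference of -0.95 with adjusted p = 0.04683 in limma, and it called 6 genes over the whole table for Act+FST versus CTRL and 2 for Act+FST versus FST, where 0 were called without it. With the block, Pkp2 was also called higher in Act than in FST (log2 difference 1.58, adjusted p = 0.05965 in limma, 0.006812 with the block). Beyond the block values given for listed genes, the block changed no other call of a gene named here in Act versus CTRL or Act versus Act+FST.

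Leaving out 1 library at a time, Cpe in FST versus CTRL ran from -0.12, without FST replicate 1, to 0.13, and Ctnnd2 in Act+FST versus FST from -0.38, without Act+FST replicate 1, to 0.21, without FST replicate 1, so neither has a stable direction. The related genes called between Act and Act+FST numbered 3 to 6 (3 without Act replicate 3 or without any 1 of the Act+FST libraries), 3 with a pseudocount of 5 and 2 with a mean of at least 50. Whole-table calls for Act+FST versus FST ran from 0 to 1, with 1 when CTRL replicate 2 was left out. With a mean of at least 50, where fewer genes were tested, 364 genes were called for Act versus CTRL and 378 for Act versus Act+FST. Otherwise the causes were not tested.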
